A study of Saccharomyces cerevisiae with 60 samples.

Results

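RDL1 and RDL2 are neighbouring genes of budding yeast that encode proteins with a rhodanese-like domain. They were chosen by gene symbol, and each had 1 spot on the array, which makes 2 of the 5524 genes measured. RDL1 came forward because it has a large range over strains in copper, so the levels of both genes over strains are given as a description with no test. Tests are given only for the comparison of the pools, for the interaction of strain and medium, and for other genes of sulfur metabolism.

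Rhodaneses are sulfurtransferases: a cysteine in the active site takes up the outer sulfur of a donor such as thiosulfate as a persulfide and passes it to an acceptor such as cyanide, glutathione or another thiol. Rdl1 is a thiosulfate sulfurtransferase of the mitochondrial outer membrane, and Rdl2, also known as Aim42, is a mitochondrial protein with rhodanese activity. Persulfides made in this way are a source of hydrogen sulfide, which in copper-treated yeast can form dark copper sulfide.

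Total RNA from exponentially growing cells was hybridized to 60 arrays of 2 colours. M5, M8, M13, M14, M22, M32, M34, S288C and YPS163, 9 strains of Saccharomyces cerevisiae, were each grown with copper sulfate and in rich medium, and each had 3 replicate arrays in each medium (54 arrays). On these arrays the strain was set against a pool of the RNA of all 9 strains in the same medium. The other 6 arrays set the copper pool against the rich medium pool. S288C is the common laboratory strain and YPS163 an oak isolate, which is background; the labels used here give no copper concentration, ploidy or mutation for any strain. Whether replicates are separate cultures is not said, and the p-values below therefore cover the spread between arrays, which may be technical.

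All values are log2 ratios of the 2 channels, after the median of each array was subtracted. A strain value of 0 is the level in the pool of that medium, 1 is 2 times that level, and negative values are below it. Array medians lay between -0.77 and 1.16 before centring. Precision is limited by the number of arrays, and the levels of RDL1 and RDL2 cannot be set against each other because they come from different probes. Per the labels, strain RNA was in channel 2 on every replicate 1 array and in channel 1 on replicates 2 and 3. The exception was M5 rich replicate 3, with strain RNA in channel 2. The labels name the channels but not the dyes, so the direction of the ratios was inferred. With channel 1 over channel 2 on the strain arrays, the linear ratios of the 200 most variable rows came closest to an average of 1, as ratios of 9 strains to their own pool should: the median distance from it was 0.18 on the log2 scale in each medium, against 0.59 in copper and 0.51 in rich medium with the opposite direction. The average linear ratio of RDL1 over the 27 arrays of a medium was 0.73 in copper and 0.70 in rich medium, and 2.46 and 2.23 if turned. For RDL2 the averages were 0.91 and 1.15, and 1.23 and 1.19 if turned, so this gene separates the directions little. Of 352 pairs of arrays with the same channel order and medium and different strains, 48 correlated below -0.3 (lowest -0.60). After the trend over neighbouring spots of each array was taken out as a running median, 1 pair did (lowest -0.33). Each of the 54 strain arrays correlated positively with the same strain's values from the opposite medium (lowest 0.13, or 0.32 with this trend removed). Turning all strain arrays together changes none of these correlations, so they cannot decide the direction, which stays inferred and not settled. On the pool arrays the direction rests on the metallothionein gene CUP1-1, known to be induced by copper, which read 3.45 to 8.92 higher in the copper pool. That makes the deposited pool ratios channel 2 over channel 1, the opposite of what was inferred for the strain arrays, and the labels used here give no reason for it.

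RDL1 was highest in M32 and lowest in YPS163 in copper. The fitted means of these strains were 0.96 and -2.88, a range of 3.84 on the log2 scale or 14.37-fold. In rich medium YPS163 was again lowest, and the range was 2.36 (5.15-fold), from 0.00 in M5 to -2.36 in YPS163. With the spot trend removed, the range in rich medium was 2.54, from 0.33 in M34 to -2.21 in YPS163. With the sign of all strain arrays turned, M32 would be lowest and YPS163 highest in copper, with the same range.

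On the centred values M32 was the only strain in copper with all 3 arrays above the pool for RDL1. Its replicates 1, 2 and 3 read 0.73, 1.31 and 0.93 (0.99 ± 0.29, mean ± SD, n = 3, as for the strain means that follow). M34, next in order, read -0.35, -0.06 and 0.47 (0.02 ± 0.42). Every M32 array was above every M34 array. M5 read -0.29, -0.82 and -0.52 (-0.54 ± 0.26), the smallest spread of the 9. These values overlapped with those of M34. With the spot trend removed M34 read 0.11, 0.35 and 0.30, all above the pool as well, and no longer overlapped with M5. At the low end, YPS163 read -2.94, -3.70 and -1.92 (-2.86 ± 0.89). All of its arrays lay below the 24 arrays of the other strains, but the highest of them was next to S288C replicate 1 at -1.91.

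Between these ends lay 5 strains that overlapped from each to the next. M14 read -1.21, -1.34 and 0.09 (-0.82 ± 0.79) and M22 -1.38, -0.94 and -0.20 (-0.84 ± 0.60). S288C read -1.91, -0.40 and -0.46 (-0.92 ± 0.86). The laboratory strain was thus in the middle of the order, with 1 low array. M8 read -1.82, -1.36 and -0.50 (-1.23 ± 0.67), and M13 read -1.90, -0.93 and -0.95 (-1.26 ± 0.56). Over the 27 copper arrays RDL1 was below the pool on 22 and above it on 5, and 6 strains were below it on all 3 arrays. That M32 had all 3 arrays above the 24 others was shared by 12 of 5524 genes (0.217%), among them RDL1 and RDL2, and that YPS163 had all 3 below was shared by 11 (0.199%), among them RDL1. These counts describe the choice of RDL1 and are not a test of it. With the spot trend removed in this way, M32 still stood above for 19 genes (0.344%), RDL1 and RDL2 among them. YPS163 then overlapped with other strains for RDL1: its highest array, at -1.50, was above the lowest of M13 (-2.04), S288C (-1.94), M22 (-1.68) and M8 (-1.57).

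**Figure D1:**
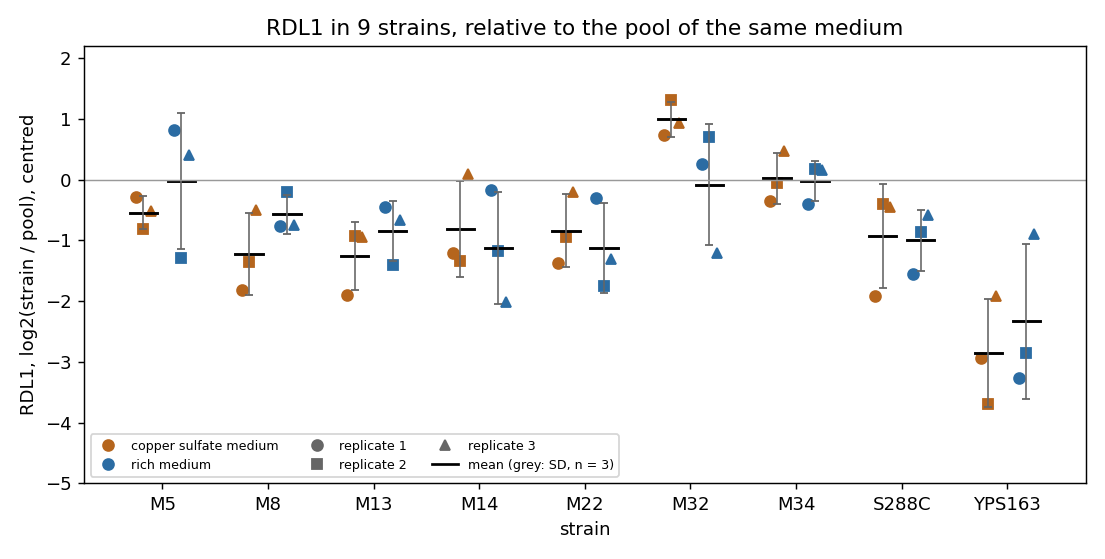
RDL1 on each of the 54 strain arrays, as the centred log2 ratio of strain to the pool of its medium (vertical axis), by strain (horizontal axis). Symbols mark replicate numbers, black lines the mean and grey bars the SD of 3 arrays; the M32 copper arrays lie between 0.73 and 1.31 and the YPS163 copper arrays between -3.70 and -1.92.

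In rich medium the strains with the highest RDL1 could not be ordered, and every strain overlapped with the next in order. M34 read -0.41, 0.18 and 0.15 (-0.02 ± 0.33). M5 read 0.82, -1.29 and 0.40 (-0.03 ± 1.12), and M32 read 0.26, 0.70 and -1.21 (-0.08 ± 1.00). In both M5 and M32 a single array set the wide spread. M8 read -0.77, -0.20 and -0.75 (-0.57 ± 0.33), M13 -0.46, -1.41 and -0.67 (-0.85 ± 0.50), and S288C -1.55, -0.87 and -0.58 (-1.0 ± 0.50). These strains were below the pool on all 3 arrays, as were M14, M22 and YPS163. M22 read -0.31, -1.75 and -1.31 (-1.12 ± 0.74) and M14 -0.18, -1.17 and -2.02 (-1.13 ± 0.92). YPS163 read -3.27, -2.85 and -0.89 (-2.34 ± 1.27), so 2 of its arrays were the lowest of all 27 and the other was among those of the other strains. RDL1 was below the pool on 21 arrays of rich medium and above it on 6. Without replicate 3 of every strain, the range in rich medium was 3.54, and without M5 rich replicate 2 it was 3.13.

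For RDL1 the 9 strain means in copper and in rich medium correlated at 0.85 (n = 9 strains, a description; each medium has its own pool). M32, M34 and M5 held the first 3 places in each medium and YPS163 the last. The 5 strains between them stood in another order in copper than in rich medium, and in each medium they overlapped from each to the next. Within the 6 sets of 9 arrays that share a medium and a replicate number, YPS163 was lowest in 5, the exception being replicate 3 in rich medium, where M14 was lowest at -2.02. M32 was highest in the 3 copper sets and in 1 of the 3 rich medium sets, and M5 was highest in the other 2. With the spot trend removed M5 was highest in 0 sets for RDL1, and M34 was highest in 2 of rich medium. On the centred values the range within a set was 2.85 to 5.01 in copper and 2.42 to 4.08 in rich medium. Against the mean of the other 8 strains, the fitted difference of YPS163 was -2.28 ± 0.42 (SE) in copper and -1.74 ± 0.42 in rich medium. For M32 it was 2.05 ± 0.42 in copper and 0.79 ± 0.42 in rich medium, and for M34 it was 0.96 and 0.86.

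RDL2 varied less over strains than RDL1. Its range was 1.50 in copper, from 0.78 in M32 to -0.71 in S288C (2.82-fold). In rich medium the range was also 1.50, from 0.76 in M32 to -0.75 in M8 (2.84-fold). M32 was thus at the top for both genes in copper, whereas YPS163, lowest for RDL1, was near the pool for RDL2. With the sign of the arrays turned, M32 would be lowest for RDL2.

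In copper the RDL2 arrays of M32 read 1.02, 0.71 and 0.60 (0.78 ± 0.22). The next strains were YPS163 with 0.09, 0.10 and -0.23 (-0.01 ± 0.19) and M5 with 0.06, -0.10 and 0.00 (-0.01 ± 0.08). No array of another strain reached the lowest of M32, and from YPS163 downward every strain overlapped with the next. M34 read 0.06, -0.36 and -0.30 (-0.20 ± 0.23), M14 -0.31, -0.49 and -0.30 (-0.37 ± 0.11), and M8 -0.49, -0.43 and -0.25 (-0.39 ± 0.13). M13 read -0.51, -0.59 and -0.24 (-0.44 ± 0.18) and M22 -0.93, -0.79 and -0.24 (-0.65 ± 0.37). M14, M8, M13, M22 and S288C were below the pool on all 3 arrays. S288C read -1.42, -0.30 and -0.43 (-0.72 ± 0.61), and its place at the bottom rested on replicate 1. The median SD of a strain for RDL2 in copper was 0.19, against 0.60 for RDL1.

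**Figure D2:**
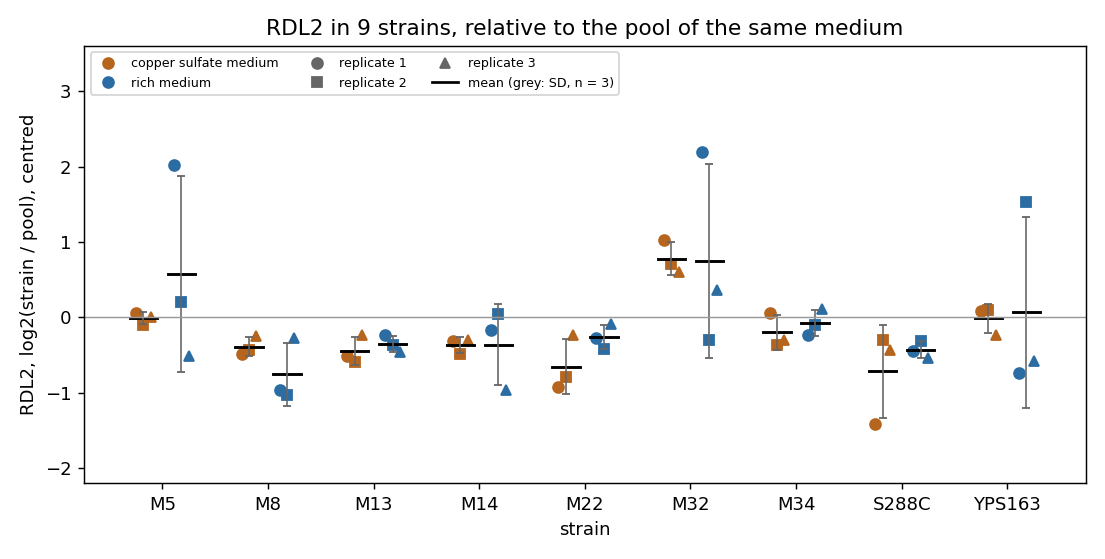
RDL2 on each of the 54 strain arrays, as the centred log2 ratio of strain to the pool of its medium (vertical axis), by strain (horizontal axis). Symbols mark replicate numbers, black lines the mean and grey bars the SD of 3 arrays; the M32 copper arrays, from 0.60 to 1.02, lie above all other copper arrays, and in rich medium 3 single arrays of M5, M32 and YPS163 reach 1.53 to 2.19.

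In rich medium 3 strains had 1 array far above their others for RDL2. M32 read 2.19, -0.30 and 0.36 (0.75 ± 1.29), M5 2.02, 0.21 and -0.51 (0.57 ± 1.30), and YPS163 -0.74, 1.53 and -0.58 (0.07 ± 1.27). The means of these strains therefore rest on single arrays. M34 read -0.24, -0.10 and 0.11 (-0.08 ± 0.18), M22 -0.27, -0.42 and -0.09 (-0.26 ± 0.17), and M13 -0.24, -0.36 and -0.46 (-0.35 ± 0.11). M14 read -0.17, 0.05 and -0.96 (-0.36 ± 0.53), S288C -0.44, -0.31 and -0.54 (-0.43 ± 0.11), and M8 -0.96, -1.03 and -0.28 (-0.76 ± 0.41). Every strain overlapped with the next in order. With the spot trend removed, the range of RDL2 in rich medium was 1.15, from M32 to M14. The high arrays of M32 and M5 then read 1.55 and 1.65, whereas that of YPS163 read 0.15. Without that step M32 was the highest strain in 5 of the 6 sets of 9 arrays that share a medium and a replicate number, and YPS163 in replicate 2 of rich medium. With the spot trend removed M32 was highest in 4 of the 6, and M5 was highest in replicate 1 of rich medium. The 9 strain means of RDL2 correlated at 0.84 between media (n = 9, a description).

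The patterns of RDL1 and RDL2 over strains were alike in part. Over the 9 strain means in copper the correlation between them was 0.45, and without M32 it was -0.24 (n = 8). It was 0.34 over the 9 strain means in rich medium and 0.39 over all 18 group means. These are descriptions over arrays that share a pool, and both genes are read from the same arrays. With the spot trend removed, the value was 0.56 over the 18 groups, and 0.07 over the 8 strains other than M32 in copper. By likeness over the 18 group means, RDL2 was number 333 of all genes for RDL1, and RDL1 number 350 for RDL2; with the spot trend removed the places were 83 and 89. YPS163 had the lowest mean of RDL1 in each medium. Its RDL2 arrays lay between -0.23 and 0.10 in copper and were spread from -0.74 to 1.53 in rich medium. In rich medium with the spot trend removed they lay between -0.27 and 0.15. M32 in copper was the only group with all 3 arrays above the pool for both genes.

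**Figure D3:**
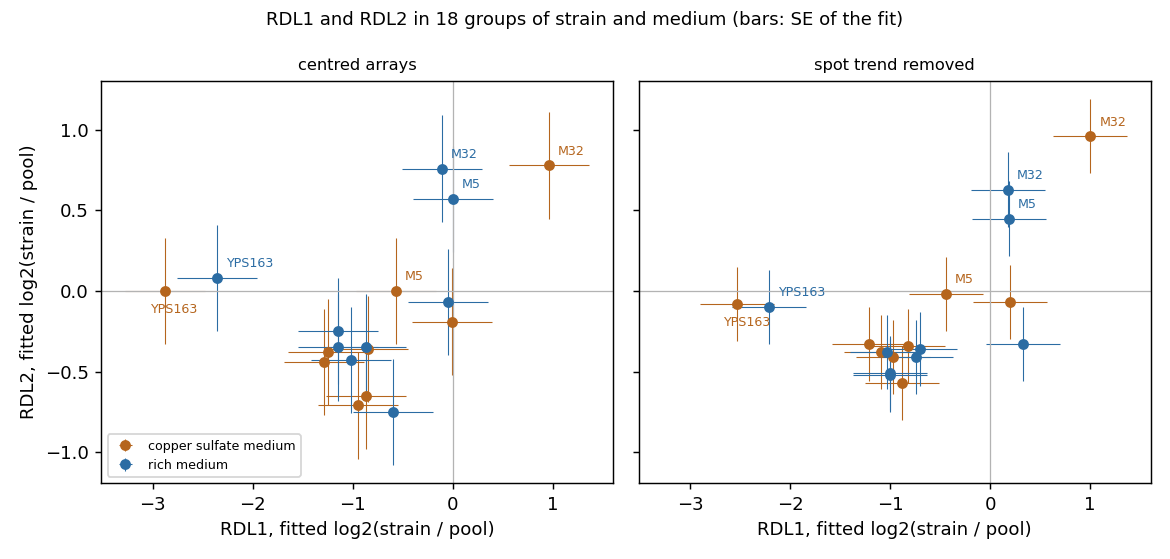
Fitted means of RDL1 (horizontal axis) and RDL2 (vertical axis) in the 18 groups of strain and medium, as log2 ratios of strain to pool with bars for the SE of the fit, from centred arrays (left) and with the spot trend removed (right). M32 in copper is at the upper right (0.96 and 0.78 on the left), and YPS163 lies apart at the left of each panel in both media.

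The direct comparison of the pools asks whether the transcripts change in copper on average over the 9 strains. RDL1 read 0.93, 0.98, 0.61, -0.71, 1.02 and 0.66 on pool arrays 1 to 6, as log2 of copper over rich medium. It was higher in the copper pool on 5 of 6 arrays, and array 4 went the other way. The fitted difference was 0.63 ± 0.23 (SE) with an adjusted p of 0.225 (limma's moderated test, two-sided, Benjamini-Hochberg over 5524 genes), so RDL1 did not pass the threshold of 0.05. Over all genes 65 passed as higher in copper (1.18%) and 13 as lower (0.235%), 1.41% in either direction, and 4.16% of genes had all 6 arrays on the same side of 0, as neither RDL1 nor RDL2 did. Without pool array 4 the difference was 0.83 and the adjusted p 0.0181, so this single array decides the call. The mean was 0.77 on the 2 arrays with the copper pool in channel 1 and 0.49 on the 4 with it in channel 2. If the pool arrays ran the other way, the difference would be -0.63.

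RDL2 read 0.16, -0.26, 0.14, 0.02, 0.28 and -0.05 on the same arrays. The values lay on both sides of 0, with 4 of 6 above it. The fitted difference was 0.07 ± 0.16 with an adjusted p of 0.842 by limma's moderated test, and without the spot trend it was -0.03 (adjusted p = 0.949). The direction for RDL2 is therefore not fixed by these arrays.

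**Figure D4:**
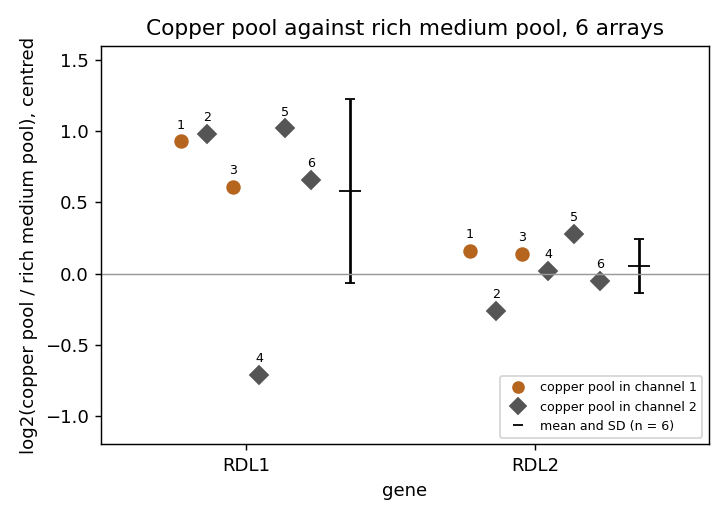
RDL1 and RDL2 on the 6 arrays of the copper pool against the rich medium pool, as the centred log2 ratio of copper to rich medium (vertical axis), by gene (horizontal axis). Numbers name the arrays, symbols the channel of the copper pool, and bars the mean and SD of 6 arrays; for RDL1 array 4 at -0.71 lies apart from the other 5, which lie between 0.61 and 1.02.

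A strain-dependent response to copper was tested as the interaction of strain and medium. The copper minus rich medium difference of RDL1, each relative to the pool of that medium, was highest in M32 (1.07 ± 0.56, SE) and lowest in M8 (-0.65 ± 0.56). With the strain arrays turned, M8 would be highest and M32 lowest. These differences spanned 1.73, and limma's F-test gave an adjusted p of 0.888. For RDL2 the differences spanned 0.94 (adjusted p = 0.993), from 0.37 ± 0.47 in M8 to -0.57 ± 0.47 in M5. Neither gene passed, and none of the 5524 genes did (0 called, 0%; 261 had an unadjusted p under 0.05). With the difference between the pools added, the change of RDL1 from rich medium to copper was 1.70 ± 0.60 in M32, 0.93 in M14, 0.91 in M22, 0.70 in S288C and 0.67 in M34. In M13, YPS163, M5 and M8 it was 0.21, 0.11, 0.05 and -0.03, and the SE was 0.60 or 0.61 in each of these strains. For RDL2 these changes lay between -0.50 in M5 and 0.44 in M8, with an SE of 0.49. These sums rest on the inferred directions of both kinds of array. With the strain arrays alone turned, the RDL1 change would be -0.45 in M32 and 1.28 in M8.

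RDL1 and RDL2 lie side by side on chromosome XV with 0 annotated genes between them, per the RefSeq table of assembly R64, and their genes span 420 and 450 bases there. The 3 genes on each side did not share the range of RDL1, nor that of RDL2 in copper. In rich medium YOR289W, at 1.42, came near RDL2, at 1.50. On the RDL1 side lie HUA2, YOR283W and PLP2, the last a gene of a phosducin-like protein that acts with the chaperonin CCT. On the RDL2 side lie RRP36, needed for processing of ribosomal RNA, MPD1, a protein disulfide isomerase of the endoplasmic reticulum, and YOR289W. Their ranges over strains were 0.54 to 0.86 in copper and 0.66 to 1.42 in rich medium. Over the 18 group means their correlations with RDL1 ran from -0.46 (HUA2) to 0.32 (RRP36) and with RDL2 from -0.17 (YOR283W) to 0.44 (MPD1). None passed in the pools (limma adjusted p of 0.401 and above). These genes also served as neighbours on the array: the rows beside RDL1 held YOR283W and RRP36, and those beside RDL2 held HUA2 and MPD1.

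**Figure D5:**
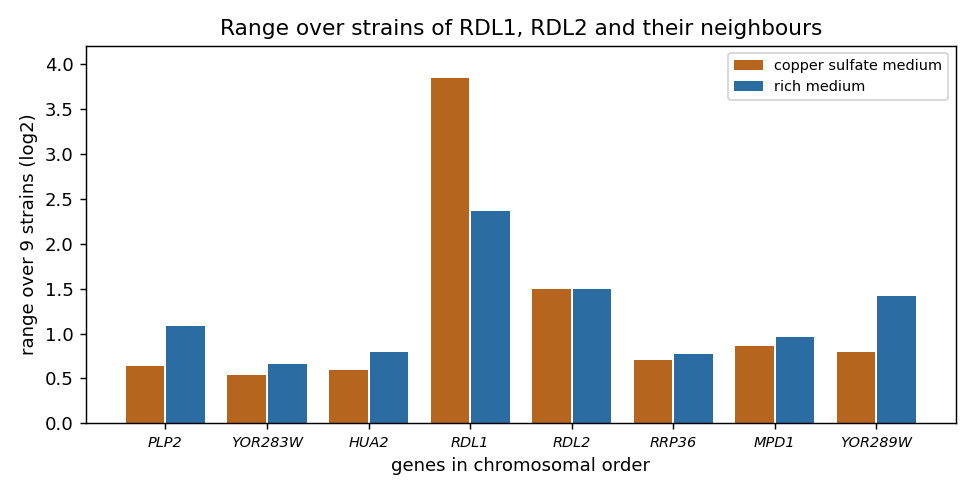
Range over the 9 strains (highest minus lowest fitted mean, log2, vertical axis) of RDL1, RDL2 and the 3 genes on each side in chromosomal order (horizontal axis), with 1 bar for each medium. The bars of RDL1 reach 3.84 and 2.36 and those of RDL2 1.50, while the neighbours end between 0.54 and 1.42.

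The genes whose 18 group means were most like those of RDL1 were RPL26B (r = 0.84) and RPS17B (0.81), which encode ribosomal proteins, RSP5 (0.72), a ubiquitin ligase, RGM1 (0.71), a putative transcription factor, and SDS22 (0.71), a regulator of protein phosphatase 1. Their own ranges were small: RPL26B spanned 0.79 in copper and 0.80 in rich medium, and its SD within a group reached 1.08. Both ribosomal genes have a near-identical copy elsewhere in the genome, whose RNA can hybridize to the same spot. With the spot trend removed, these 5 genes held places 6, 71, 7, 14 and 125. The likeness is a description over 18 groups.

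For RDL2 the most alike were YGR201C (0.89), a gene similar to those of translation elongation factor 1 gamma, RLP24 (0.77), which acts in ribosome assembly, HOG1 (0.77), the MAP kinase of the osmotic stress pathway, DSS4 (0.74) and CRG1 (0.74), a methyltransferase. YGR201C kept place 1 with the spot trend removed (0.94) and CRG1 moved to place 2, whereas RLP24 fell to place 814. YGR201C, like RDL2, was highest in M32, with means of 2.74 ± 0.96 in copper and 2.64 ± 0.04 in rich medium (SD, n = 3). M5 was second with -1.72 ± 0.78 and -0.77 ± 1.69. In copper the other 7 strains had means between -5.37 and -3.44. The correlation of YGR201C with RDL2 was not computed without M32 and M5, so how far it rests on them is not known. With the strain arrays turned, M32 would be lowest for YGR201C. The 7 strains other than M32 and M5 would then all lie far above the pool of all 9 strains in copper. Of the 3 strains with a single high RDL2 array in rich medium, M5 alone had its highest YGR201C value on that array. On replicates 1, 2 and 3 of M5 it read 1.09, -2.21 and -1.19. In M32 it read 2.65, 2.67 and 2.60, and in YPS163 -5.92, -4.34 and -3.58. RDL2 was high on replicate 2 of YPS163 only before the spot trend was removed.

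No other gene with a rhodanese domain passed a test. Of 8 on the list, 7 were measured: TUM1 and UBA4, which pass sulfur on for the thiolation of transfer RNA, YCH1 and MIH1, phosphatases of the rhodanese fold, and the deubiquitinases DOA4, UBP5 and UBP7. None of the 7 passed in the pools, over strains in copper (1.45% of all genes passed that F-test), over strains in rich medium (1.63%) or for the interaction. Their differences between the pools lay between -0.43 (YCH1) and 0.25 (DOA4). Ranges in copper were between 0.36 (TUM1) and 1.46 (UBP5), with a median of 0.62 against 0.73 over all genes. UBP5, MIH1 and DOA4, 3 of the 7, were highest in YPS163 and lowest in M32 in copper, the opposite ends of RDL1, and none of them passed. The share of all genes with these ends was not counted, so this is no result about the rhodanese genes.

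None of the 7 genes of the sulfur relay and transfer RNA thiolation passed in any of these tests. That list holds the cysteine desulfurase NFS1, its partner ISD11, URM1, NCS2, NCS6, and again TUM1 and UBA4. Its median difference between the pools was -0.26, against -0.04 over all genes, with NCS2 at -0.76 ± 0.25 (limma adjusted p = 0.191) and URM1 at -0.65 ± 0.19 (0.145). Neither value passed.

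Of 38 measured genes of sulfate assimilation, methionine and cysteine, 1 was higher in the copper pool and 0 lower (1.18% and 0.235% over all genes). It was MET17, which makes homocysteine from sulfide (1.19 ± 0.17, adjusted p = 0.00283). For 2 the F-test over strains in copper passed, as it did for 1.45% of all genes. MET6, methionine synthase, ranged over 3.32 from M22 to M13 (adjusted p = 0.000691), and SSU1, the sulfite pump, over 3.35 from M5 to YPS163 (0.0085). The lists were chosen with earlier results of these data known, so p-values of list genes are not independent of that choice. YPS163 was the lowest strain in copper for 19 of the 71 genes on all lists, SSU1 among them, and 3 of the 71 shared both the highest and the lowest strain with RDL1. The shares over all genes were not counted, so these counts do not set the lists apart from other genes. The median range of this list in copper was 1.15. In rich medium 0 of the 38 passed over strains.

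Among 21 genes of glutathione and thiol redox, 2 were higher and 1 was lower in the copper pool, against 1.18% and 0.235% over all genes. The dithiol glutaredoxins GRX1 (0.80 ± 0.18, adjusted p = 0.0452) and GRX2 (0.71 ± 0.15, 0.042) rose, and GRX5 (-0.90 ± 0.20, 0.0476), the mitochondrial monothiol glutaredoxin of iron-sulfur cluster assembly, fell, all by limma's moderated test. With the spot trend removed GRX2 and GRX5 no longer passed (0.143 and 0.254). In all, 4 of the 71 genes on the lists passed in the pools, where 1.41% of all genes did. Without pool array 1 none did, and without array 2, 3 or 5 only 1 did. None of the 21 passed over strains in either medium. With the spot trend removed 9 of the 71 genes passed over strains in copper, where 3.73% of all genes did, and 1 in rich medium, where 2.66% did.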

How the data were processed

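The deposited values are log2 ratios of the 2 channels: for 100.0% of ratios under 10, 2 to the power of the deposited value lay within 0.00001 of a number with 3 decimals. Per the labels, a GenePix 4000A and GenePix 4.0 gave the spot intensities and poor spots were marked. Normalization is not stated in the sources used. The table held 6144 rows, 60 arrays and 0 missing values. Platform symbols were updated through RefSeq's table of R64: 5541 rows had 1 gene (5536 matched, 5 under the platform's name), 603 none and 0 several. Rows of 17 genes were averaged.

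Each array was centred on its median and turned by its channel order. In limma 3.58.1 (R 4.3.3) the 54 strain arrays entered as 18 groups and a channel effect, and the 6 pool arrays as a mean and a channel effect, with Benjamini-Hochberg adjustment over 5524 genes at 0.05. Fits were tested on simulated data. Tables and figures used Python 3.11.15 with matplotlib 3.10.9, pandas 2.3.3, NumPy 2.4.6 and SciPy 1.17.1. The running median took 15 by 15 spots on an inferred layout of 16 blocks of 384.

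Genes named were RDL1, RDL2, the 5 most alike of each, the 3 neighbours on each side, up to 4 per list and test past the threshold, and CUP1-1; other list genes named, with those at the ends of a list's values, were picked with their values in view. The members and lists were chosen with earlier results of these data known. Sequences are not used here.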

Additional observations from a re-analysis of the deposited data

Results flagged for a closer look

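On the 6 pool arrays RDL1 read -0.71 on array 4, far below the other 5. The gap to the nearest array was 0.762 of the whole range, above the critical value of Dixon's test for 6 arrays, which chance passes for about 1 group in 20. RDL2 had no such array (0.399). The cause was not tested.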

How the results depend on the processing

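Across 14 alternatives for the pools, 39 for each medium and 65 for the interaction, neither gene passed for the interaction. RDL1 passed in the pools only without pool array 4 (0.83); leaving out arrays in turn gave 0.54 to 0.83 for RDL1 and 0.03 to 0.12 for RDL2, and adjusted p over all alternatives ran from 0.0181 to 0.948 for RDL1. Pool differences changed sign with all signs turned, as they must (RDL1 -0.63, RDL2 -0.0738), so that setting tests nothing. They reversed with pool arrays not turned by channel order (-0.14 and -0.0754). For RDL2 they also reversed with the spot trend removed (-0.0322) or 16 blocks centred (-0.0788). The range of RDL1 in copper was 4.94 with scaled arrays and 1.39 with strain arrays not turned; in rich medium it was 1.45 with scaled arrays. The range of RDL2 in copper was 2.14 without centring and 0.47 not turned. Leaving out arrays gave 3.26 to 4.34 and 1.90 to 3.54 for RDL1 in copper and rich medium, and 1.17 to 1.74 and 1.13 to 2.11 for RDL2. Not turned, in rich medium YPS163 minus the mean of the other 8 strains reversed for RDL1 (0.33), as did M8 for RDL2 (0.0417).

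Of the sulfur genes, the 2 past the test over strains in copper became 8 with scaled arrays, 9 with the spot trend removed, 5 with 16 blocks, 6 with only the arrays of that medium and 0 not turned (1 to 3 leaving out arrays, 1 without YPS163 copper replicate 2, replicate number 1 or replicate number 3). The 0 in rich medium became 1 with the spot trend removed or 16 blocks, and 0 to 2 leaving out arrays, 2 without YPS163 rich replicate 2. The 4 in the pools became 1 with scaled arrays or no channel effect, 14 with pool arrays not turned, and 0 to 3 leaving out arrays. The causes were not tested.

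With a replicate block the ranges were 3.84 and 2.31 for RDL1 and 1.50 and 1.86 for RDL2, the interaction had adjusted p of 0.762 and 0.857, and 3 sulfur genes passed in copper. Channel order follows from replicate number except on M5 rich replicate 3, so that array alone separates the channel effect from the block. Replicates 2 and 3 otherwise share a channel order, and the block also fits a difference between them. For RDL2 in rich medium, M5 minus the mean of the other 8 strains moved from 0.74 to 1.28. Over all genes the count that passed moved from 80 to 87 in copper and from 90 to 118 in rich medium. Same-numbered arrays share a number and, but for M5 rich replicate 3, a channel order. The correlation of their deviations exceeded 0.1 in 81 of 108 pairs in copper and 67 of 108 in rich medium (45 and 58 after the channel effect). Of 54 arrays, 43 were closest to their own number, a hint from the data. Each gene had 1 row, so fitting rows singly changes nothing for them.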
